A study of Homo sapiens with 6 samples.

Results

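The nuclear-encoded genes of oxidative phosphorylation were followed in A375, an established human melanoma cell line, after exposure to panobinostat, an inhibitor of histone deacetylases. Members were taken by gene symbol alone, as the NDUF, SDH, UQCR, CYC1, COX5 to COX8 and ATP5 symbols of the 5 enzyme complexes in the deposited count table, in the older nomenclature that the table uses. The symbol patterns took 84 of the 25343 genes: 38 of complex I, 4 of complex II, 11 of complex III, 14 of complex IV and 17 of complex V. COX4I1 and COX4I2 fall outside these patterns and are described with the other mitochondrial genes.

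The treated libraries came from parental A375 cells given 50 nM panobinostat for 24 h, and the control libraries from the same cells given an equal volume of PBS, called vehicle here. Each group had 3 libraries of bulk RNA, taken from cells lifted with Versene, a chelating agent that detaches cells without protease. The labels do not say whether the 3 libraries of a group came from separate cultures, so p-values reflect only how far these libraries spread, and that spread may be technical. A375 is 1 line grown in culture, so its mutations are shared by both groups.

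The respiratory chain sits in the inner mitochondrial membrane. Complexes I and II pass electrons from NADH and succinate to coenzyme Q, complex III passes them on to cytochrome c, and complex IV passes them to oxygen, while complexes I, III and IV pump protons and complex V uses the returning protons to make ATP. Complexes I, III, IV and V are mosaics of proteins from the mitochondrial and the nuclear genome, and complex II is encoded in the nucleus alone. Several subunits exist as paralogs, a common form found in most tissues and another largely restricted to muscle or testis. In melanoma, the coactivator PGC-1α, encoded by PPARGC1A, is known to drive these genes in a subset of tumours.

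Library totals ran from 32293283 to 38944399 counts, so that 3 counts, the floor used here for a gene near 0, corresponded to 0.0774 to 0.0928 CPM (counts scaled to the library total). Libraries of 1 group differed by more than sampling noise (chi-square per degree of freedom 1.90 to 9.14) and far less than libraries of different groups (312 to 359), and no pair was identical. In both groups library 3 stood apart. Within a group, pairs with library 3 gave 5.04 to 9.14, and libraries 1 and 2 gave 1.90 with panobinostat and 2.35 with vehicle. The melanoma and neural crest markers SOX10, MITF, S100B, ERBB3, MIA and VIM were present in all 6 libraries, and all 6 genes were called lower with panobinostat. Their summed level, most of it VIM, was 2923 to 3055 CPM with panobinostat and 6011 to 6233 CPM with vehicle. Of the markers of other cell types, PTPRC, CD3E and KRT5 stayed at or near 0 and were not tested, and CD68, EPCAM, PECAM1 and VWF were called higher. EPCAM had 3, 2 and 2 counts with vehicle and PECAM1 1, 3 and 7, so both passed the low-count filter only through the panobinostat libraries. The summed level of that list, most of it CD68, was 94.6 to 96.9 CPM with panobinostat and 37.0 to 41.5 CPM with vehicle. The part of these marker shifts in the results below was not tested.

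Panobinostat changed oxidative phosphorylation genes in both directions, and most of the changes were small. Of the 84 members, 79 had enough counts to be tested, 19 rose, 31 fell and 29 did not pass the threshold, which was an adjusted p under 0.05 in edgeR's quasi-likelihood F test, adjusted after Benjamini and Hochberg over all 15499 genes tested. Of all genes tested, 82.8% were called, 41.8% higher and 41.0% lower. Among the members 63.3% were called, 24.1% higher and 39.2% lower. The median log2 fold change, panobinostat over vehicle, was -0.075 over the 79 members and 0.009 over all genes. The median size of the change without its sign was 0.214 over the members and 0.596 over all genes. A called change of 1.5-fold or more was found in 7 members that rose and 9 that fell, against 27.5% of all genes higher and 22.8% lower by that much. Only COX6B2 and COX7B2 rose, and only NDUFB2 and NDUFC1 fell, by 2-fold or more, where 18.9% of all genes rose and 11.7% fell by that much.

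The members' counts were also set against genes of similar count level, a comparison added after the data were seen. At 10 CPM or more, averaged over both groups, 75 members remained, of which 62.7% were called, 16 higher and 31 lower. Of the 9850 genes at that level 85.3% were called, 35.6% higher and 49.6% lower, with a median log2 fold change of -0.123. The median size of the change was 0.214 over these members and 0.468 over these genes. In 52 of the 79 tested members the panobinostat and vehicle ranges did not overlap, where 83.4% of all genes tested had ranges that did not overlap. Bulk RNA cannot tell fewer transcripts per cell from fewer cells that carry them.

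The direction of many small changes depended on upper quartile scaling and on the filter. With RLE scaling the members split into 22 higher and 31 lower, and with library sizes alone into 21 higher and 31 lower. With upper quartile scaling the median of all genes moved to 0.129 and the members split into 33 higher and 25 lower, and with a filter of 5 CPM the split was 30 higher and 27 lower. Without a filter it was 16 higher and 41 lower, and with DESeq2 it was 20 higher and 30 lower. A change of scaling alone leaves the differences between members as they are, and 40 of the 50 calls, 15 of the 19 rises and 25 of the 31 falls, held in all 14 alternative settings. The replicates were tight: the standard error of the log2 fold change had a median of 0.0484 over the tested members and 0.0689 over all genes, and the coefficient of variation between libraries of a group had a median over the members of 3.46% with panobinostat and 3.56% with vehicle.

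**Figure D1:**
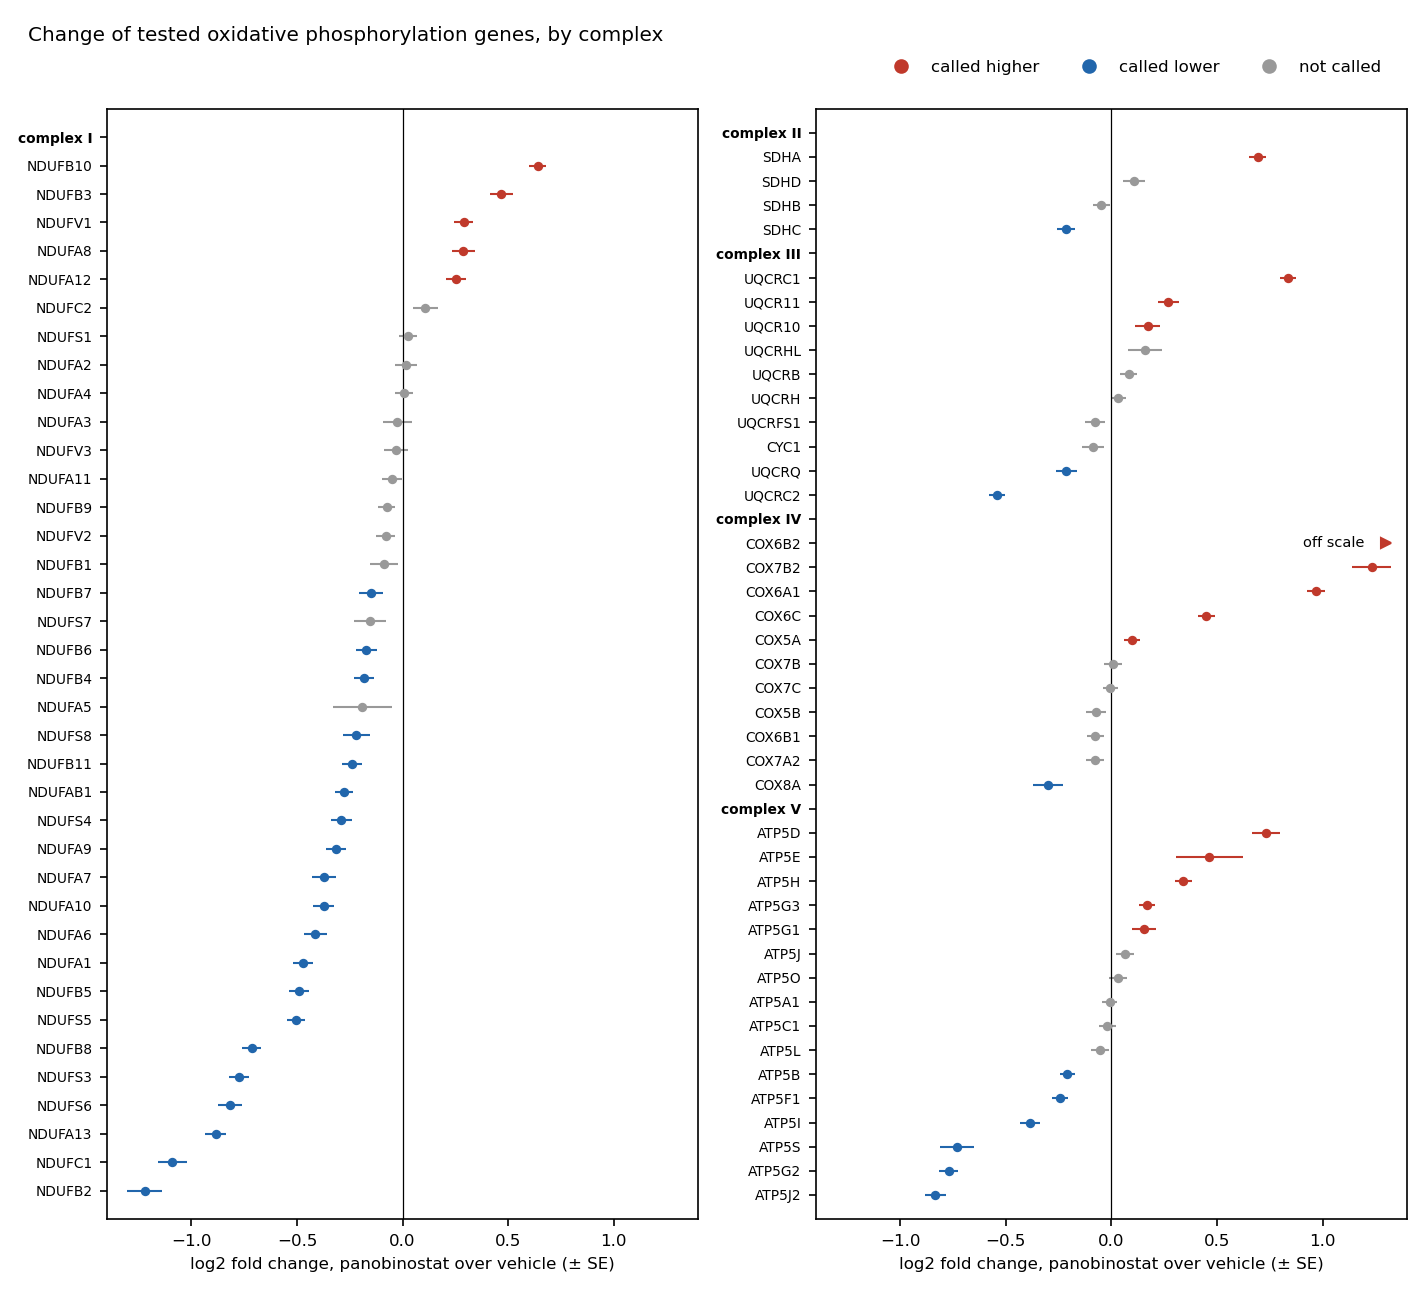
Log2 fold change, panobinostat over vehicle, of 78 tested oxidative phosphorylation genes, ordered within complexes I to V, with bars of 1 standard error. Red points were called higher, blue points lower and grey points were not called, and COX6B2 lies off the scale to the right. Complex I has 20 of its 37 points called lower, and complex IV has 1 of 11, where 41.0% of all genes tested were called lower.

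Complex I held most of the falls, and every complex had members that rose and members that fell. In complex I, 21 of 38 tested members fell and 5 rose (median log2 fold change -0.184). Complex II had 1 rise and 1 fall among 4 (median 0.030), complex III 3 rises and 2 falls among 10 (median 0.057), complex IV 5 rises and 1 fall among 11 (median 0.007) and complex V 5 rises and 6 falls among 16 (median -0.013). The complex I median minus the median of the other 41 members was -0.19 with TMM. It was the same with each of the 3 alternative scalings, which cannot move such a difference. With any 1 library left out it was between -0.164 and -0.23. Minus the median of all genes, the complex I median was -0.192 with TMM. This second difference was -0.08 when genes under 5 CPM were left out and -0.351 without a filter. At 55.3%, the share of complex I genes called lower is set beside 41.0% of all genes and 49.6% of genes at 10 CPM or more. The share called higher, 13.2%, is set beside 41.8% and 35.6%. The shares called higher and lower were 25% and 25% in complex II, 30% and 20% in III. They were 45.5% and 9.09% in IV and 31.2% and 37.5% in V. The rises of complex IV and the falls of complex V were near the shares of all genes. Members of a complex are not replicates, and the difference between complexes was not tested.

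The share of all counts taken by each complex is scaled to the library total alone. Complex I took 0.235% ± 0.00499 of counts with panobinostat and 0.263% ± 0.00325 with vehicle (SD, n = 3 each). Complex V took 0.250% ± 0.00618 with panobinostat and 0.267% ± 0.00332 with vehicle. Both shares were lower in every panobinostat library than in every vehicle library, and for complex V the median log2 fold change of its genes was -0.013 with TMM and 0.107 with upper quartile scaling. Complex II took 0.0455% ± 0.000426 with panobinostat and 0.0398% ± 0.000138 with vehicle. For complex III the shares were 0.106% ± 0.00176 with panobinostat and 0.0983% ± 0.00157 with vehicle, and for complex IV 0.111% ± 0.00283 with panobinostat and 0.101% ± 0.00191 with vehicle. These 3 shares were higher in every panobinostat library than in every vehicle library. The 84 genes together took 0.748% ± 0.0160 with panobinostat and 0.768% ± 0.00960 with vehicle, and here the libraries of both groups overlapped. The overlap came only through library 3 of each group, at 0.7659% with panobinostat and 0.7581% with vehicle. A share is dominated by genes with many counts, and no p-value was computed for these sums.

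**Figure D2:**
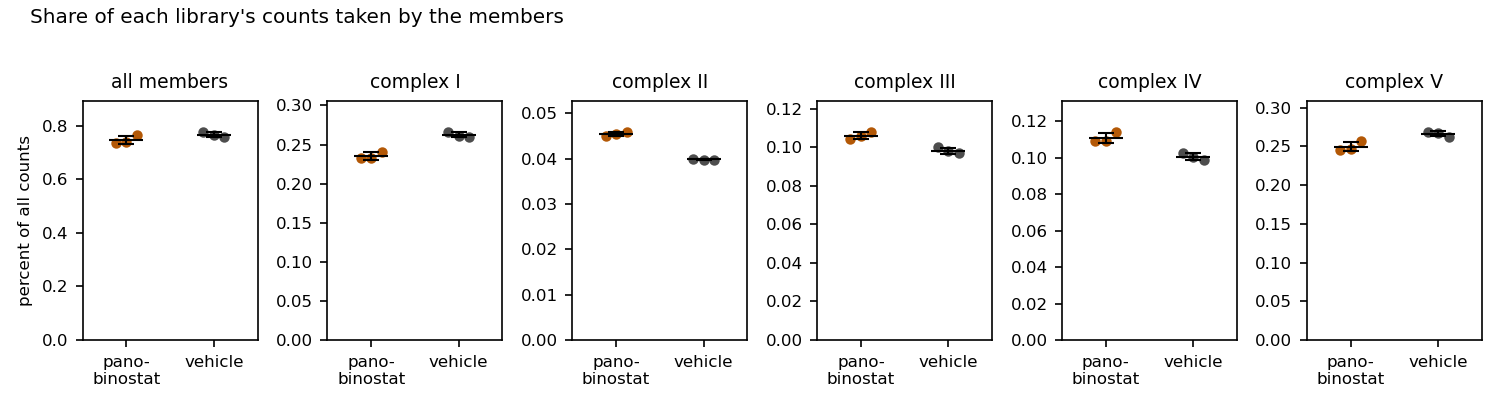
Percent of each library's counts that fell on all 84 genes and on each complex, with the panobinostat libraries left of the vehicle libraries, the mean as a line and 1 SD as bars (n = 3 each). The share of complex I was lower with panobinostat (0.235% against 0.263%), the shares of complexes II, III and IV were higher, and the share of all 84 genes overlapped between the groups.

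Promoters of oxidative phosphorylation genes are known for sites of the nuclear respiratory factors NRF1 and NRF2 (GABP), of YY1 and of SP1, and those of some for sites of the estrogen-related receptors. RefSeq promoters (GRCh38.p14, 250 bases before to 50 after the gene start) were matched for 65 of the 84 members, 11 of them through a newer symbol. The stretches from 150 bases before the start up to the start are shown for 6 members that changed. No rule was set for this choice, so these stretches do not stand for all rises and falls. Capitals mark matches, on either strand, to the NRF1 type (GCGC, then A and any base, then GCGC), to CCGGAAG (ETS type, as bound by GABP), to the YY1 type (AAGATG followed at once by GCGG) and to GGGCGG (SP1). SDHA lies at chr5:218170-218319 on the plus strand, UQCRC1 at chr3:48609647-48609796 on the minus strand, UQCR11 at chr19:1605463-1605612 on the minus strand, COX6A1 at chr12:120437963-120438112 on the plus strand, COX6B2 at chr19:55354720-55354869 on the minus strand and NDUFS3 at chr11:47578924-47579073 on the plus strand. The first 5 genes rose with panobinostat and NDUFS3 fell.
SDHA: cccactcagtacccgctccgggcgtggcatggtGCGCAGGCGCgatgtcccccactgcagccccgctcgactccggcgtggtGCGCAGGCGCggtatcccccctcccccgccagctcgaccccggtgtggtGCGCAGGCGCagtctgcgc
UQCRC1: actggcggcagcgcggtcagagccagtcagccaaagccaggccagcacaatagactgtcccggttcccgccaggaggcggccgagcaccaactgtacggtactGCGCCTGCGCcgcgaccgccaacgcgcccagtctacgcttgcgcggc
UQCR11: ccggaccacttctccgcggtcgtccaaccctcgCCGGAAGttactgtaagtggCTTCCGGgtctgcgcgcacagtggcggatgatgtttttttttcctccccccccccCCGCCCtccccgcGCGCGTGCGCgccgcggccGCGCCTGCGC
COX6A1: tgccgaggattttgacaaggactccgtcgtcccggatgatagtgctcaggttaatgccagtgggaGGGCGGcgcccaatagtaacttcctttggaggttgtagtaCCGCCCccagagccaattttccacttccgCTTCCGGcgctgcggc
COX6B2: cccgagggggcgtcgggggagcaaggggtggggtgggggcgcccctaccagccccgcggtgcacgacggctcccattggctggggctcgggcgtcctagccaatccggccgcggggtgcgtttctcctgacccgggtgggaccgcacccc
NDUFS3: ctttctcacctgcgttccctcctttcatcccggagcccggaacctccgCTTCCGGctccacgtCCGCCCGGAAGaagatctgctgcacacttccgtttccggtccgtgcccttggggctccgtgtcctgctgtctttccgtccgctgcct
The SDHA stretch held 3 NRF1-type matches, UQCRC1 held 1, and UQCR11 held 2 with 2 ETS-type and 1 SP1 match. COX6A1 held 1 ETS-type and 2 SP1 matches. NDUFS3 held 2 ETS-type matches and 1 SP1 match, which overlaps an ETS-type match. NDUFB4 and NDUFA9, which fell and are not shown, held NRF1-type letters in their promoter windows. COX6B2 held none of these letters in the stretch shown, and its whole promoter window held 1 SP1 match. That window held 31 CpG, where the median was 23 over the members' promoters and 26 over those of tested genes.

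Over all matched promoters the NRF1-type letters stood in 16 of 65 members (24.6%), against 10.9% of the 11906 promoters of tested genes and 6.28% of all 27305 promoters. They stood in 6 of 16 members that rose, in 3 of 24 that fell, in 6 of 23 that were not called and in 1 of 2 that were not tested. The stricter form with T as the free base, a special case of the same letters, stood in 4 members (6.15%), against 2.23% of promoters of tested genes. The ETS-type CCGGAAG stood in 18 members (27.7%, against 17.7% of promoters of tested genes) and the YY1-type letters in 7 (10.8%, against 2.56%). ETS-type letters stood in 3 of 16 members that rose, in 7 of 24 that fell and in 8 of 23 that were not called. For the YY1 type these counts were 1, 3 and 3, and for GGGCGG they were 10, 15 and 12. GGGCGG stood in 37 members (56.9%, against 68.2%), and TCAAGGTCA, the estrogen-related receptor letters, in 1 (1.54%, against 0.193%). These are matches of letters on both strands in a fixed window, with no test, and say nothing about binding.

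In complex I the core subunits, here those encoded in the nucleus, which carry the flavin and the iron-sulfur clusters or lie beside them, moved in both directions. NDUFV1, which binds NADH and the flavin, had 137, 134 and 144 CPM in the panobinostat libraries, against 119.9, 114 and 106 CPM in the vehicle libraries. Every panobinostat library lay above every vehicle library, and the log2 fold change was 0.29 ± 0.05 (SE, edgeR adjusted p = 2.24e-05). NDUFS3, a core subunit of the matrix arm, had 42.0, 40.3 and 44.2 CPM in the panobinostat libraries, against 73.7, 72.5 and 70.1 CPM in the vehicle libraries. Here the panobinostat libraries all lay below the vehicle libraries, with a log2 fold change of -0.78 ± 0.05 (SE, edgeR adjusted p = 1.23e-10). NDUFS1, which carries iron-sulfur clusters of the matrix arm, had 133, 129.9 and 129.8 CPM in the panobinostat libraries, against 125, 126 and 135 CPM in the vehicle libraries. The groups overlapped, and the log2 fold change was 0.03 ± 0.04 (SE, edgeR adjusted p = 0.565), not called. NDUFS8, a further core subunit of the matrix arm, fell (log2 fold change -0.22). NDUFS8 lost its call under the 5 CPM filter (-0.125) and under upper quartile scaling (-0.10). NDUFS7 and NDUFV2 did not pass (-0.16 and -0.08). NDUFS7 was called lower without vehicle library 3 (-0.227) or panobinostat library 3 (-0.219), and NDUFV2 without vehicle library 1 (-0.114) or panobinostat library 3 (-0.11).

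The accessory subunits of complex I surround the core and are needed for its assembly and stability. Of the 31 tested, 18 fell, 4 rose and 9 did not pass the test. Among all genes tested 41.0% were called lower and 41.8% higher, and among genes at 10 CPM or more 49.6% lower and 35.6% higher. The largest rise was that of NDUFB10, an accessory subunit of the membrane arm, with 150.3, 155 and 161 CPM in the panobinostat libraries, against 101, 99.8 and 98.8 CPM in the vehicle libraries. NDUFB3, another of the membrane arm, had 37.8, 38.8 and 39.8 CPM in the panobinostat libraries, against 28.6, 26.9 and 28.6 CPM in the vehicle libraries. Both genes had every panobinostat library above every vehicle library, with log2 fold changes of 0.64 ± 0.04 (SE, edgeR adjusted p = 1.03e-10) for NDUFB10 and 0.47 ± 0.05 (SE, edgeR adjusted p = 3.58e-07) for NDUFB3. NDUFA8 and NDUFA12 rose less, by log2 fold changes of 0.29 and 0.25.

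NDUFB2, an accessory subunit of the membrane arm, had 15.1, 17.8 and 18.9 CPM in the panobinostat libraries, against 43.2, 41.3 and 36.2 CPM in the vehicle libraries. NDUFC1, a small accessory subunit, had 15.6, 14.7 and 14.6 CPM in the panobinostat libraries, against 33.3, 33.2 and 29.2 CPM in the vehicle libraries. NDUFA13, also known as GRIM-19, had 67.2, 64.2 and 73.3 CPM in the panobinostat libraries, against 131, 125 and 122 CPM in the vehicle libraries. All 3 genes had every panobinostat library below every vehicle library by a wide margin. Their log2 fold changes were -1.22 ± 0.08 (SE, edgeR adjusted p = 1.80e-09) for NDUFB2, -1.09 ± 0.07 (SE, edgeR adjusted p = 9.33e-11) for NDUFC1 and -0.89 ± 0.05 (SE, edgeR adjusted p = 3.01e-11) for NDUFA13. Further falls past 1.5-fold were those of NDUFS6 (-0.82) and NDUFB8 (-0.71), beside NDUFS3. Smaller falls were seen for NDUFS5 (-0.51), NDUFB5 (-0.49), NDUFA1 (-0.47), NDUFA6 (-0.41), NDUFA10 (-0.37), NDUFA7 (-0.37), NDUFA9 (-0.32), NDUFS4 (-0.29), NDUFAB1 (-0.28), the mitochondrial acyl carrier protein, and NDUFB11 (-0.24). NDUFB4, NDUFB6 and NDUFB7 also fell, by log2 fold changes of -0.18, -0.17 and -0.15. NDUFB4 and NDUFB6 lost their calls under the 5 CPM filter and under upper quartile scaling. NDUFB7 lost its call in 8 of the 14 alternatives, among them without vehicle library 1 (-0.129) or 2 (-0.154) and without panobinostat library 1 (-0.135) or 2 (-0.134).

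The 12 complex I members that did not pass the test had log2 fold changes of -0.19 to 0.11. NDUFB9, an accessory subunit of the membrane arm, was called lower without vehicle library 2 (-0.117) or panobinostat library 3 (-0.106). NDUFA5 was the least even of them, with 53.3, 56.7 and 43.1 CPM in the panobinostat libraries, against 51.5, 55.8 and 67.6 CPM in the vehicle libraries. The groups overlapped, its standard error of 0.14 was far above the members' median, and its coefficient of variation of 13.9% was the highest of any tested member with panobinostat. NDUFA4, whose symbol places it in complex I and which current nomenclature assigns to complex IV, had a log2 fold change of 0.01 ± 0.04 (SE) and was not called. With it in complex IV, that complex had 5 rises and 1 fall among 12 tested.

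Complex II, succinate dehydrogenase, showed a split between its catalytic subunits. SDHA, the flavoprotein that oxidizes succinate, had 165, 170.1 and 174 CPM in the panobinostat libraries, against 106, 108 and 102 CPM in the vehicle libraries. SDHB, the iron-sulfur subunit, had 116, 120.5 and 124 CPM in the panobinostat libraries, against 124, 123 and 125 CPM in the vehicle libraries. Every panobinostat library lay above the vehicle range for SDHA, while for SDHB the groups overlapped. The log2 fold changes were 0.69 ± 0.04 (SE, edgeR adjusted p = 3.71e-11) for SDHA and -0.05 ± 0.04 (SE, edgeR adjusted p = 0.267) for SDHB, the second not called. SDHC, a membrane anchor, had 91.0, 85.6 and 91.0 CPM in the panobinostat libraries, against 105, 103 and 102 CPM in the vehicle libraries. It fell in every panobinostat library, by a log2 fold change of -0.21 ± 0.04 (SE, edgeR adjusted p = 0.000142). SDHD, the other anchor, had 76.3, 73.6 and 69.6 CPM in the panobinostat libraries, against 65.7, 65.2 and 72.8 CPM in the vehicle libraries. Its groups overlapped and it did not pass the test (0.11 ± 0.05, edgeR adjusted p = 0.066), but was called higher with RLE scaling or DESeq2 (0.126 each), library sizes alone (0.124), upper quartile scaling (0.228) or the 5 CPM filter (0.203), and without vehicle library 3 (0.144) and without panobinostat library 3 (0.139).

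Complex III had its paired core proteins moving in opposite directions. UQCRC1, core protein 1, had 259, 260.0 and 272 CPM in the panobinostat libraries, against 150.1, 149.6 and 143 CPM in the vehicle libraries. UQCRC2, core protein 2, had 112, 112 and 116 CPM in the panobinostat libraries, against 165, 159.5 and 170.1 CPM in the vehicle libraries. For UQCRC1 every panobinostat library lay above, and for UQCRC2 every one below, the vehicle libraries. Their log2 fold changes were 0.84 ± 0.04 (SE, edgeR adjusted p = 1.43e-12) for UQCRC1 and -0.54 ± 0.04 (SE, edgeR adjusted p = 9.77e-10) for UQCRC2. The catalytic subunits showed no called change. UQCRFS1, the Rieske iron-sulfur protein, had 47.3, 49.9 and 50.7 CPM in the panobinostat libraries, against 50.8, 53.6 and 51.7 CPM in the vehicle libraries. CYC1, cytochrome c1, had 98.2, 94.0 and 102 CPM in the panobinostat libraries, against 111, 106 and 96.3 CPM in the vehicle libraries. UQCRFS1 lay just below the vehicle libraries in every panobinostat library and CYC1 overlapped, with log2 fold changes of -0.08 ± 0.05 (SE, edgeR adjusted p = 0.144) for UQCRFS1 and -0.09 ± 0.05 (SE, edgeR adjusted p = 0.127) for CYC1. CYC1 was called lower without vehicle library 3 (-0.161).

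Of the small subunits of complex III, UQCR11 had 50.6, 49.9 and 53.2 CPM in the panobinostat libraries, against 44.7, 41.2 and 41.5 CPM in the vehicle libraries. UQCR10 had 29.4, 31.5 and 33.1 CPM in the panobinostat libraries, against 29.3, 27.3 and 26.8 CPM in the vehicle libraries. UQCRQ had 84.1, 82.6 and 85.9 CPM in the panobinostat libraries, against 102, 101 and 89.9 CPM in the vehicle libraries. UQCR11 and UQCR10 were higher, and UQCRQ lower, in every panobinostat library than in any vehicle library. The log2 fold changes were 0.27 ± 0.05 (SE, edgeR adjusted p = 0.000118) for UQCR11, 0.17 ± 0.06 (SE, edgeR adjusted p = 0.0152) for UQCR10 and -0.21 ± 0.05 (SE, edgeR adjusted p = 0.000723) for UQCRQ. UQCR10 lost its call without vehicle library 2 (0.14) or 3 (0.127) and without panobinostat library 3 (0.128), and in the fit with a replicate block (0.171). UQCRQ lost its call with upper quartile scaling (-0.094). UQCRB (0.08 ± 0.04), the hinge protein UQCRH (0.03 ± 0.04) and the UQCRH copy UQCRHL (0.16 ± 0.08) did not pass (log2 fold changes ± SE). UQCRB was called higher with RLE scaling (0.099), library sizes alone (0.097), upper quartile scaling (0.201) or the 5 CPM filter (0.176), and without vehicle library 3 (0.096). UQCRHL was called higher with RLE scaling (0.177), upper quartile scaling (0.279) or the 5 CPM filter (0.253), and without vehicle library 1 (0.196). UQCRH was called higher with upper quartile scaling (0.153) or the 5 CPM filter (0.127). UQCRH and UQCRHL are near-identical, so the division of reads between them is uncertain. UQCRBP1, a pseudogene of UQCRB, had 0 to 3 counts in each library and was not tested.

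**Figure D3:**
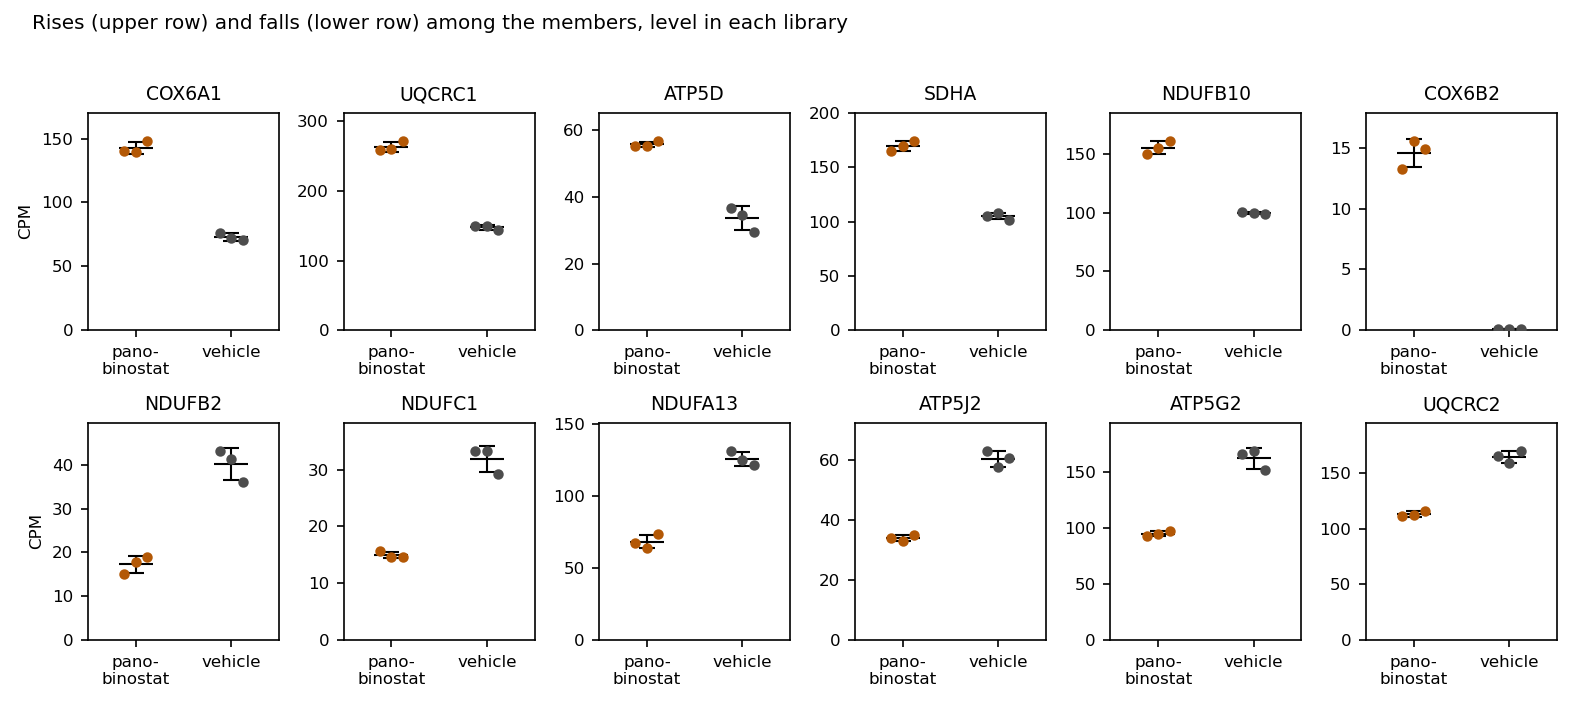
CPM in each library of 6 members that rose (upper row) and 6 that fell (lower row), with the panobinostat libraries left of the vehicle libraries, the mean as a line and 1 SD as bars (n = 3 each). In no panel do the groups overlap, and COX6B2 sits near 0 in the vehicle libraries.

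Complex IV held the largest change of any member. COX6B2, a paralog of COX6B1 known from testis, had 481, 569 and 481 counts in the panobinostat libraries, against 4, 2 and 3 counts in the vehicle libraries. Every panobinostat library was far above the vehicle libraries, which were at the floor of 3 counts or next to it. Scaled to library size, 1531 counts with panobinostat against 9 with vehicle gave a ratio of 181 (exact 95% interval 95.1 to 397, counting error only). The call held in all alternatives (edgeR adjusted p = 5.04e-16). COX6B2 passed the low-count filters only through the panobinostat libraries, so its p-value and calls are no evidence apart from these counts. The common COX6B1, which faces the intermembrane space, had 115, 112 and 119 CPM in the panobinostat libraries, against 125, 120.1 and 120.4 CPM in the vehicle libraries. The panobinostat libraries lay just below the vehicle libraries, the log2 fold change was -0.08 ± 0.04 (SE, edgeR adjusted p = 0.0857), and the gene was called lower without vehicle library 3 (-0.103) or panobinostat library 3 (-0.104). In CPM, COX6B2 reached 13.3, 15.6 and 14.9 in the panobinostat libraries. The counts are not per length, so the levels of these paralogs were not compared.

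COX7B2, the testis-enriched paralog of COX7B, had 9.75, 9.93 and 10.9 CPM in the panobinostat libraries, against 4.23, 4.06 and 4.66 CPM in the vehicle libraries. COX7B2 was higher in every panobinostat library, with a log2 fold change of 1.23 ± 0.09 (SE, edgeR adjusted p = 1.03e-09), while COX7B did not pass the test (0.01 ± 0.04). In the COX6A pair, COX6A1, the common form, had 141, 139.6 and 148 CPM in the panobinostat libraries, against 76.1, 71.8 and 70.8 CPM in the vehicle libraries. It rose in every panobinostat library by a log2 fold change of 0.97 ± 0.04 (SE, edgeR adjusted p = 1.23e-12), and COX6A2, the heart and muscle form, had 0 counts in all 6 libraries. In the COX7A pair, COX7A2 had 106, 106 and 114 CPM in the panobinostat libraries, against 114, 115 and 115 CPM in the vehicle libraries. It did not pass the test (-0.08 ± 0.04 SE, edgeR adjusted p = 0.0877), was called lower without vehicle library 1 (-0.10) or 3 (-0.094) or panobinostat library 3 (-0.118), and its muscle form COX7A1 had 1 count in all. In the COX8 pair, COX8A had 93.2, 88.0 and 97.0 CPM in the panobinostat libraries, against 126, 116 and 101 CPM in the vehicle libraries. COX8A was the single complex IV member that fell, with a log2 fold change of -0.30 ± 0.07 (SE, edgeR adjusted p = 0.00152) and an uneven vehicle group. The testis form COX8C had 4, 0 and 3 counts in the panobinostat libraries, against 0, 1 and 0 counts in the vehicle libraries, and like COX6A2 and COX7A1 it was not tested.

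Of the remaining complex IV members, COX6C, a small subunit, had 116, 119 and 122 CPM in the panobinostat libraries, against 87.8, 89.6 and 84.3 CPM in the vehicle libraries. COX5A, a matrix-facing subunit, had 124, 119.7 and 125 CPM in the panobinostat libraries, against 114, 116 and 114 CPM in the vehicle libraries. COX5B, which holds a zinc ion, had 68.4, 68.5 and 71.4 CPM in the panobinostat libraries, against 75.6, 74.0 and 69.3 CPM in the vehicle libraries. COX6C and COX5A were higher in every panobinostat library, and COX5B overlapped between the groups. The log2 fold changes were 0.45 ± 0.04 (SE, edgeR adjusted p = 2.09e-08) for COX6C, 0.10 ± 0.04 (SE, edgeR adjusted p = 0.0266) for COX5A and -0.07 ± 0.05 (SE, edgeR adjusted p = 0.159) for COX5B. The COX5A call was lost in 7 of 14 alternatives, with values of 0.076 to 0.091 without any 1 of vehicle libraries 1, 2 and 3 or panobinostat libraries 1 and 3. COX7C did not pass (-0.01 ± 0.04). The count of falls in complex IV, 1 with all libraries, was 4 without vehicle library 3, 3 without panobinostat library 3 and 2 without vehicle library 1, through COX5B, COX6B1 and COX7A2.

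In complex V, ATP synthase, the catalytic F1 head showed 2 rises and 1 fall among 5. ATP5B, the catalytic β subunit, had 784, 775 and 814 CPM in the panobinostat libraries, against 918, 931 and 893 CPM in the vehicle libraries. ATP5A1, the α subunit that alternates with it, had 495, 499 and 531 CPM in the panobinostat libraries, against 514, 509.8 and 509 CPM in the vehicle libraries. ATP5B was lower in every panobinostat library and ATP5A1 overlapped, with log2 fold changes of -0.21 ± 0.03 (SE, edgeR adjusted p = 2.82e-05) for ATP5B and -0.01 ± 0.04 (SE, edgeR adjusted p = 0.846) for ATP5A1. The α change turned to 0.086 under the 5 CPM filter and 0.112 under upper quartile scaling. ATP5D, the δ subunit of the central stalk, had 55.2, 55.3 and 56.8 CPM in the panobinostat libraries, against 36.7, 34.6 and 29.6 CPM in the vehicle libraries. ATP5E, the ε subunit beside it, had 2.71, 2.82 and 3.06 CPM in the panobinostat libraries, against 2.14, 2.55 and 1.55 CPM in the vehicle libraries. Both were higher in every panobinostat library, with log2 fold changes of 0.73 ± 0.07 (SE, edgeR adjusted p = 2.00e-08) for ATP5D and 0.46 ± 0.16 (SE, edgeR adjusted p = 0.0132) for ATP5E. The ATP5E call was lost without vehicle library 3 (0.272). ATP5C1, the γ subunit, did not pass (-0.02 ± 0.04).

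The c ring turns with the proton flow, and its protein is made from 3 genes that differ in the presequence and give the same mature protein. ATP5G1 had 51.2, 52.5 and 57.6 CPM in the panobinostat libraries, against 50.7, 48.8 and 45.5 CPM in the vehicle libraries. ATP5G2 had 93.2, 94.1 and 97.4 CPM in the panobinostat libraries, against 166, 169 and 152 CPM in the vehicle libraries. ATP5G3 had 129.6, 134 and 134 CPM in the panobinostat libraries, against 118, 120.2 and 116 CPM in the vehicle libraries. ATP5G2 was lower and ATP5G1 and ATP5G3 were higher in every panobinostat library than in any vehicle library. The log2 fold changes were 0.15 ± 0.06 (SE, edgeR adjusted p = 0.0185) for ATP5G1, -0.77 ± 0.04 (SE, edgeR adjusted p = 4.08e-11) for ATP5G2 and 0.17 ± 0.04 (SE, edgeR adjusted p = 0.000644) for ATP5G3. The ATP5G1 call was lost without vehicle library 2 (0.141) or 3 (0.093), without panobinostat library 3 (0.10) and with a replicate block (0.154).

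The peripheral stalk holds the head still. ATP5H, subunit d of this stalk, had 145, 145 and 152 CPM in the panobinostat libraries, against 112, 116 and 121 CPM in the vehicle libraries. It was higher in every panobinostat library, with a log2 fold change of 0.34 ± 0.04 (SE, edgeR adjusted p = 7.28e-07), while ATP5F1, subunit b, fell (-0.24) and ATP5J and ATP5O did not pass (0.06 ± 0.04 and 0.03 ± 0.04). Of the small membrane subunits, ATP5J2, subunit f, had 33.9, 32.8 and 34.9 CPM in the panobinostat libraries, against 62.9, 57.6 and 60.6 CPM in the vehicle libraries. It fell in every panobinostat library, by a log2 fold change of -0.83 ± 0.05 (SE, edgeR adjusted p = 9.34e-11), ATP5I, subunit e, fell less (-0.39), and ATP5L, subunit g, did not pass (-0.05 ± 0.04). ATP5S, which matches the symbol pattern and is not a subunit of the enzyme, had 8.37, 8.01 and 7.46 CPM in the panobinostat libraries, against 12.2, 13.7 and 13.7 CPM in the vehicle libraries. It also fell in every panobinostat library (-0.73 ± 0.08 SE, edgeR adjusted p = 1.78e-07), and ATP5L2, a copy of ATP5L, had 1 to 3 counts in each library and was not tested. Without ATP5S and the copies, 77 members were tested, with 19 rises and 30 falls. The complex V count of rises, 5 with all libraries, was 3 without vehicle library 3, through ATP5E and ATP5G1.

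Several of these counts can hold reads of other genes, because no source used here says whether reads were counted by strand. In GENCODE v29 annotation, exons of 39 members overlap exons of another gene. For 20 of these members such a gene has counts in the table. NDUFB2 overlaps BRAF on the opposite strand over 1239 bases, and BRAF itself did not pass the test, with 30.5 ± 0.564 CPM with panobinostat and 32.5 ± 0.778 CPM with vehicle (SD, n = 3 each). NDUFB2-AS1, antisense to NDUFB2, had 17, 20 and 21 counts with panobinostat, against 47, 31 and 34 with vehicle, far below NDUFB2 itself. NDUFA13 shares exon sequence with YJEFN3 on the same strand, and ATP5E overlaps TUBB1. The ATP5E copy ATP5EP2 had 38, 32 and 39 counts with panobinostat, against 30, 27 and 21 with vehicle, where ATP5E had 98, 103 and 99 counts in the panobinostat libraries, against 83, 88 and 60 counts in the vehicle libraries. The ATP5E values are uncertain for these reasons. The SDHA copies SDHAP1, SDHAP2 and SDHAP3 together held few reads, at most 116 counts in a library for any 1 of them, where SDHA had 5983, 6219 and 5629 counts in the panobinostat libraries, against 4087, 3726 and 3927 counts in the vehicle libraries. The exons of COX6B2 overlap no other gene of the table. They do overlap AC020922.1, a gene absent from the table, on the same strand over 204 bases. COX6A1 likewise overlaps AL021546.1, also absent, on the same strand over 143 bases. Whether reads of these absent genes were counted as COX6B2 or COX6A1 was not tested.

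A list of subunits and related proteins outside the symbol patterns had 7 tested genes, of which 3 rose (42.9%) and 3 fell (42.9%). This is close to the shares of all genes tested, 41.8% higher and 41.0% lower. COX4I1, the common form of the regulatory subunit 4 of complex IV, had 258, 253 and 275 CPM in the panobinostat libraries, against 287, 287 and 294 CPM in the vehicle libraries. It fell by a log2 fold change of -0.14 ± 0.04 (SE, edgeR adjusted p = 0.00225), which did not pass under the 5 CPM filter (-0.05) or upper quartile scaling (-0.024). The lung-type COX4I2 had at most 1 count. CYCS, cytochrome c, had 182, 193 and 158 CPM in the panobinostat libraries, against 119.8, 122 and 132 CPM in the vehicle libraries. CYCS rose in every panobinostat library (0.51 ± 0.07 SE, edgeR adjusted p = 1.66e-05), as did COX7A2L, a supercomplex factor (0.37), and C14orf2, a small subunit of complex V (0.53). ATPIF1, the inhibitor of ATP synthase, had 41.8, 41.3 and 42.2 CPM in the panobinostat libraries, against 58.5, 60.6 and 56.3 CPM in the vehicle libraries. It fell by a log2 fold change of -0.49 ± 0.05 (SE, edgeR adjusted p = 5.06e-08), and so did NDUFA4L2, a paralog of NDUFA4 known to respond to hypoxia, at low counts (-1.26 ± 0.28).

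Assembly factors, the proteins that build the complexes without staying in them, moved in both directions. Of the 24 tested factors of complex IV, 15 fell (62.5%) and 4 rose (16.7%), where 41.0% of all genes tested were called lower and 41.8% higher. SURF1, needed for the COX1 subassembly, and HIGD1A rose (log2 fold changes 0.79 and 0.68). TACO1, the translational activator of COX1, averaged 14.7 ± 0.551 CPM with panobinostat and 27.0 ± 1.17 CPM with vehicle (SD, n = 3 each), a log2 fold change of -0.88 ± 0.06 (SE, edgeR adjusted p = 7.31e-10). COA4 (-0.70) and COA1 (-0.53) fell as well. Complex I assembly counted 7 falls and 5 rises among 14, with NDUFAF2 (-0.68), NDUFAF6 (-0.97) and TMEM126B (-0.75) lower and NDUFAF1 (0.46), NDUFAF3 (0.41) and TMEM186 (0.47) higher. Complex III had 4 falls and 2 rises among 6, including UQCC2 (-0.95) and BCS1L, which inserts the Rieske protein (-0.74), against UQCC1 (0.43). Complex II had 2 falls and 2 rises among 4, and complex V 2 falls and 1 rise among 3. The complex IV rises numbered 2 without vehicle library 1 or 2. Those of complex II numbered 1 without vehicle library 1 or 2 or panobinostat library 1 or 2, those of complex III 1 without vehicle library 1 or 3 or panobinostat library 2 or 3, and the single one of complex V was kept only without vehicle library 3.

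Of the 16 tested regulators of mitochondrial genes, 6 were called higher (37.5%) and 9 lower (56.2%). The shares over all genes tested were 41.8% higher and 41.0% lower. PPARGC1A, the coactivator PGC-1α, had 29.3, 29.8 and 26.2 CPM in the panobinostat libraries, against 0.439, 0.406 and 0.389 CPM in the vehicle libraries. The groups were far apart, and 2996 counts with panobinostat against 46 with vehicle gave a library-scaled ratio of 69.3 (exact 95% interval 51.8 to 94.9, counting error only) and a log2 fold change of 6.10 ± 0.12 (SE, edgeR adjusted p = 2.71e-17). ESRRG, an estrogen-related receptor that PGC-1α coactivates, had 13.3, 12.3 and 11.02 CPM in the panobinostat libraries, against 1.81, 2.17 and 1.89 CPM in the vehicle libraries. ESRRG was also higher in every panobinostat library (2.65 ± 0.11 SE, edgeR adjusted p = 4.44e-13), as were POLRMT, the mitochondrial RNA polymerase (0.64), PPARGC1B (0.61) and ESRRA (0.52). In the other direction, PPRC1, the third PGC-1 family member, had 48.8, 50.0 and 51.3 CPM in the panobinostat libraries, against 94.6, 86.8 and 83.1 CPM in the vehicle libraries. NRF1, which binds many promoters of these genes, had 12.6, 11.8 and 11.8 CPM in the panobinostat libraries, against 18.3, 20.4 and 18.1 CPM in the vehicle libraries. TFAM, which packages mitochondrial DNA and starts its transcription, had 73.8, 71.5 and 66.0 CPM in the panobinostat libraries, against 88.1, 94.5 and 102 CPM in the vehicle libraries. All 3 were lower in every panobinostat library, with log2 fold changes of -0.82 ± 0.05 (SE, edgeR adjusted p = 1.28e-10) for PPRC1, -0.65 ± 0.07 (SE, edgeR adjusted p = 1.85e-07) for NRF1 and -0.43 ± 0.06 (SE, edgeR adjusted p = 1.91e-06) for TFAM. GABPA, the DNA-binding part of GABP, fell (-0.27) and lost its call without vehicle library 1 (-0.313) or 3 (-0.197), and YY1 did not pass (0.07 ± 0.04). Whether these regulators bear on the members' changes was not tested.

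**Figure D4:**
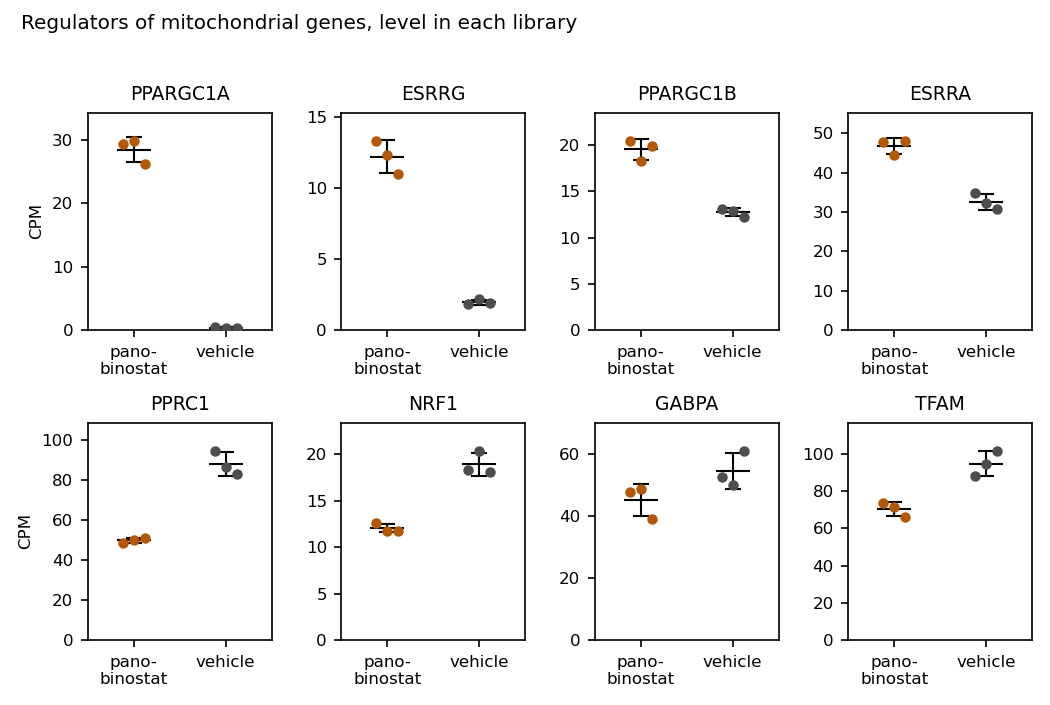
CPM in each library of 8 regulators of mitochondrial genes, with the panobinostat libraries left of the vehicle libraries, the mean as a line and 1 SD as bars (n = 3 each). The upper row holds regulators that rose, PPARGC1A among them near 0 with vehicle, and the lower row those that fell.

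Pathways that feed or build the chain are set beside it. Of all genes tested, 41.8% were called higher and 41.0% lower. In the TCA cycle, 5 of 14 genes rose (35.7%) and 4 fell (28.6%), both below the shares of all genes. MDH2 (0.49), FH (0.44) and DLD (0.32) were higher and SUCLG2 (-1.53), IDH2 (-1.15) and IDH3B (-0.82) lower on the log2 scale. In coenzyme Q synthesis 8 of 13 fell (61.5%) and 3 rose (23.1%), and 1 rose without vehicle library 2 or 3. Among them COQ2 (-0.79), COQ4 (-0.66) and PDSS1 (-0.64) were lower and COQ3 (0.28) higher. Of 76 tested mitochondrial ribosomal proteins, which translate the subunits encoded in mitochondria, 50 fell (65.8%) and 12 rose (15.8%). Their median was -0.213, and 7 rose without panobinostat library 3. MRPS7 (-1.20), MRPL9 (-1.15) and MRPS15 (-1.02) were among the falls. The glycolytic genes had 12 rises (70.6%) and 4 falls (23.5%) among 17 (median 0.391). PKM, pyruvate kinase, averaged 6383 ± 135 CPM with panobinostat and 2514 ± 31.0 CPM with vehicle (SD, n = 3 each), a log2 fold change of 1.34 ± 0.03 (SE, edgeR adjusted p = 4.35e-16). ENO2 (1.42) and ALDOA (1.17) rose as well, while LDHB (-0.63), PFKL (-0.61) and PFKM (-0.48) fell. Differences between these lists and the members were not tested.

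**Figure D5:**
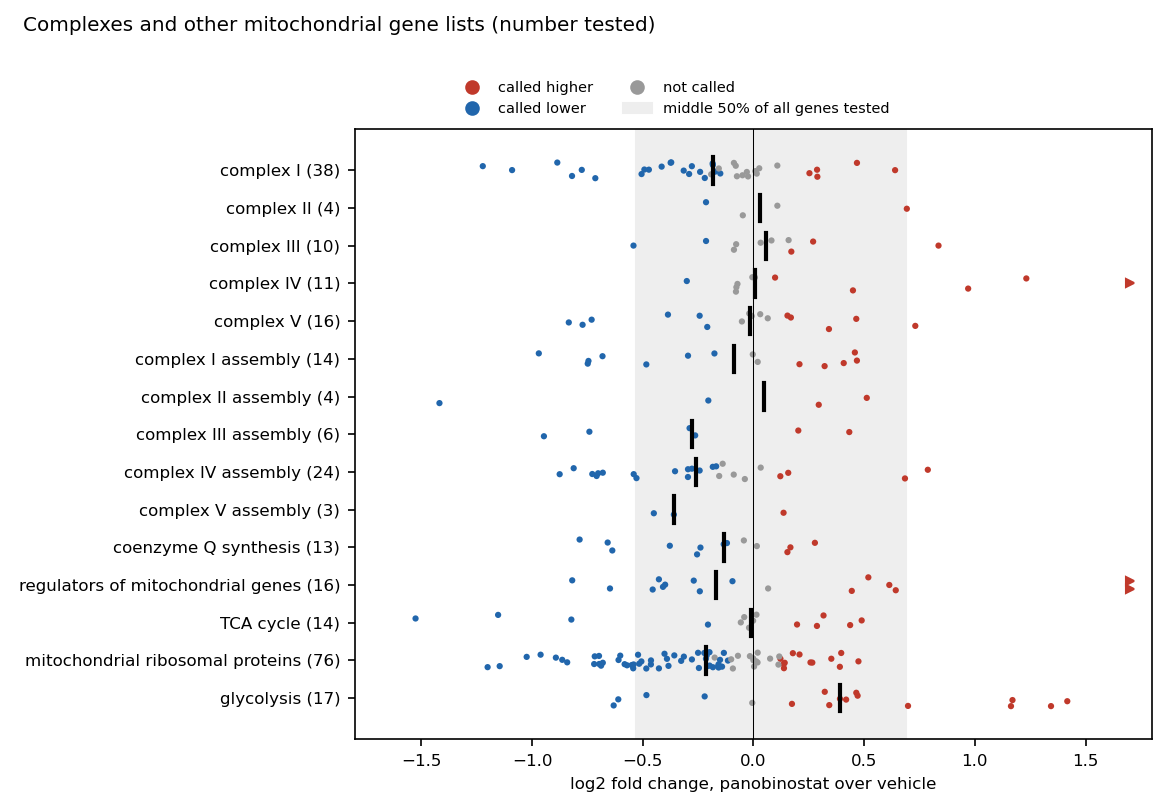
Log2 fold change, panobinostat over vehicle, of each tested gene of complexes I to V and of the other mitochondrial and glycolytic lists, with the number tested in brackets. Black bars mark medians, the grey band holds the middle 50% of all genes tested, and triangles mark genes beyond the axis. The glycolysis median is 0.391 and that of complex I -0.184.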

How the data were processed

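Bulk RNA of 6 A375 libraries was analysed from the count table deposited by the authors, raw whole-number read counts for each gene symbol. The dose in the labels set the group of a sample, and its title set its column. The table's name gives STAR as the aligner; version, genome build, annotation, kit and strand setting were not found in the labels or headers. The table held 25435 lines, of which 92 spike-in lines had 0 counts and were left out, and 28 gene lines carried date-like symbols, which were kept in the fit and not named.

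Genes were filtered with filterByExpr, scaled by TMM and tested on group alone with edgeR 4.0.16 in R 4.3.3 (estimateDisp, glmQLFit with robust = TRUE, glmQLFTest), and called at a Benjamini-Hochberg adjusted p under 0.05 over all 15499 genes tested. The common biological coefficient of variation was 0.0449. CPM use TMM-scaled library sizes and are not per length. Share sums use raw totals. Ratios from few counts carry exact conditional 95% intervals, which cover counting error only. The steps were tested on simulated counts with known changes. Each result was recomputed with library-size, RLE or upper quartile scaling, without the filter, with a minimum of 5 CPM in 3 libraries, with limma-voom (limma 3.58.1) or DESeq2 1.42.0, with a replicate block and with each library left out. Promoter letters were searched in RefSeq promoters (GRCh38.p14) and exon overlaps in GENCODE v29. Figures were drawn with matplotlib 3.10.9.

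The members, gene lists and tests were chosen with earlier results of these data known. Values in every library are given for up to 3 rises and 3 falls with the largest log2 fold change in each complex, a panel of catalytic subunits and the isoform sets. From each other list up to 3 called genes per direction by adjusted p could be named, with COX4I1, COX4I2, NDUFA4L2, ATPIF1, CYCS, PPARGC1A, NRF1 and TFAM. Genes named beyond that, such as NDUFA5, GABPA, YY1 and BRAF, and the 10 CPM comparison, were chosen after their values were seen. A member and a marker gene counted in the totals are not reported here by name. The labels give replicate numbers only as part of the titles and pair no libraries. Samples with the same number had correlations of -0.078, -0.058 and -0.141 between their deviations from the group means, so the numbers were not treated as pairs.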

Additional observations from a re-analysis of the deposited data

How the results depend on the processing

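Of the 50 calls among the members, 40 held in all 14 alternatives. The named large changes (COX6B2, COX7B2, COX6A1, UQCRC1, SDHA, NDUFB2, NDUFC1, NDUFA13) kept their direction and call in each. COX6B2 passed each low-count filter, and COX7B2 the 5 CPM filter, only through the panobinostat libraries. What moved was mostly the placement of small changes around 0. With upper quartile scaling, 33 members were called higher, the members' median was 0.045, and the median of complexes I to V was -0.064, 0.15, 0.177, 0.127 and 0.107 in that order. Complex I then had 9 rises, complex II had 2, complex III had 6 with 1 fall, and complex V had 9, with 1 fall in complex II assembly and 5 in coenzyme Q synthesis. The signs of COX7C (0.115), ATP5A1 (0.112), ATP5C1 (0.101), TFB2M (0.025), IDH3A (0.118), COQ5 (0) and GAPDH (0.115) turned or reached 0. With the 5 CPM filter, 30 members were called higher, their median was 0.019, and the medians of complexes I to V were -0.089, 0.125, 0.151, 0.101 and 0.075. Complex I had 8 rises, complex II 2 and complex III 6, and COX7C (0.09), ATP5A1 (0.086) and GAPDH (0.089) turned. Some members given above as not passing the test were called higher both with this filter and with upper quartile scaling. These include NDUFA4, NDUFC2, NDUFS1, UQCRH, COX7B, ATP5J and ATP5O. Falls numbered 1 among subunits and related proteins outside the symbol patterns, 0 in complex II assembly and 5 in coenzyme Q synthesis. Without a filter, medians were -0.096 over the members, -0.228 in complex I, -0.014 in II, 0.054 in IV and -0.052 in V. Falls were then 2 in complex II, 4 in III and 4 in IV, and rises were 1 in complex II assembly, 1 in III assembly, 2 in IV assembly, 0 in V assembly and 1 in coenzyme Q synthesis. The added falls were those of NDUFB9, NDUFS7, NDUFV2, SDHB, CYC1, UQCRFS1, COX5B, COX6B1, COX7A2 and ATP5L. RLE scaling gave a median of -0.057, 2 rises in complex II and 5 in III, DESeq2 gave a median of -0.057 and 2 rises in complex II, and library size alone gave 2 rises in complex II. The median of all genes was 0.129 with upper quartile scaling, -0.009 with the 5 CPM filter and 0.123 without a filter. The cause of the moves under these settings was not tested.

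The fit with a replicate block gave 16 rises and 30 falls among the members, and ATP5G1 (0.154), COX5A (0.098), NDUFB7 (-0.149) and UQCR10 (0.171) lost their calls. It gave 0 rises in complex V assembly, 1 in coenzyme Q synthesis and 7 among mitochondrial ribosomal proteins. Same-numbered libraries share only a number, so a call lost there is no sign of a weaker change.

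With 1 library left out, the members had 16 to 19 rises and 30 to 36 falls, with medians of -0.091 to -0.057. Medians ran from -0.22 to -0.165 in complex I, -0.006 to 0.041 in II, 0.03 to 0.067 in III, -0.024 to 0.02 in IV and -0.048 to 0.002 in V. Rises numbered 1 to 2 in complex II and 3 to 5 in V, and falls 1 to 4 in IV. Among the other lists, rises numbered 1 to 2 in complex II assembly, 1 to 2 in III assembly, 2 to 4 in IV assembly, 0 to 1 in V assembly, 1 to 2 in coenzyme Q synthesis and 7 to 11 among mitochondrial ribosomal proteins. A log2 fold change of 0.1 is close to 2 of the members' median standard errors (0.0484), and the table gives no gene lengths, so levels cannot be compared between genes.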
